A study of Homo sapiens with 6 samples.

Results

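First-intron peaks beyond 2 kb are sites of 3′-end reads in the first intron of a protein-coding gene, with the summit outside annotated exons and transcript ends. They were taken from the pooled peak list of a poly(A) 3′-seq experiment in IMR-32, a cell line from a human neuroblastoma. A peak was kept when its summit lay in intron 1 of the gene's canonical transcript, over 2 kb past the annotated start, and intron 1 was not also the last intron. The summit had to be in no annotated exon and in no transcript-end window, which ran from 200 bp before to 600 bp past each annotated end. Peaks followed within 50 bp by a 25-base window with 18 or more A on the gene strand were left out, because oligo(dT) can prime on such a stretch in the RNA itself. The rule kept 19892 of the 200023 peaks in the list (9.94%).

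The series holds 6 libraries of 3′ mRNA sequencing: 2 of cells given the solvent DMSO, 2 of cells given 400 nM THZ531 for 2 h and 2 of cells given the same dose for 6 h. The compound binds CDK12 and CDK13 covalently and inhibits them, and both are kinases of the RNA polymerase II tail. The authors merged the reads of all samples before they called peaks, so no value belongs to 1 library. Their methods do not list the samples merged, so the pool is here taken to be these 6 libraries. No DMSO value could be compared with a THZ531 value, the spread between replicates could not be measured, and the depth of each library is unknown. All shares below therefore describe the pooled list, with 95% intervals that cover counting error only. Peaks of 1 gene share a transcript and are not replicates, and no test between classes of peaks was possible.

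A messenger RNA normally ends where the cleavage and polyadenylation machinery cuts the nascent transcript, a short way past a hexamer, most often AATAAA in the DNA. Introns also hold such hexamers, and U1 snRNP, which recognises 5′ splice sites, is known to keep the machinery from using them. First introns are often the longest introns of a gene. A transcript cut there holds no exon but the first, and so often little or no coding sequence.

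The sequences of the tallest sites show how varied they are. Shown first are 8 of the 10 peaks with the most reads at the summit among peaks with a single gene strand and 1 exact genomic copy, with at most 1 peak a gene. Each run holds 80 bases before and 20 bases past the 3′ edge of the peak on the gene strand, from GRCh38, with any of the 12 polyadenylation hexamers that lies wholly before the edge in capitals.
PHOX2A: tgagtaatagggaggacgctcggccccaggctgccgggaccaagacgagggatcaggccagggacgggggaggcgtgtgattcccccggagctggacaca
TIMP2: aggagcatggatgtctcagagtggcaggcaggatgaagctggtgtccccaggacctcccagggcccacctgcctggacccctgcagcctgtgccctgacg
PKM: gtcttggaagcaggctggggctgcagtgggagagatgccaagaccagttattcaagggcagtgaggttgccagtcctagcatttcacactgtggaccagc
WDR33: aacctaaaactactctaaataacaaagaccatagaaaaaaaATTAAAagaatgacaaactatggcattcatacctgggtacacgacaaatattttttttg
SNX5: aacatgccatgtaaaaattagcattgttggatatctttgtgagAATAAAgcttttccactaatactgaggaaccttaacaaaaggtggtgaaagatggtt
PCGF3: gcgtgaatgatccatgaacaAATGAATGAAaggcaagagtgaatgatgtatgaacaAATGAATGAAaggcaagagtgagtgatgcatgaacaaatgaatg
TSC22D2: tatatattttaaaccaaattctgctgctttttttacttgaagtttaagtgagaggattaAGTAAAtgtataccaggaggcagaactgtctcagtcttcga
PCBP3: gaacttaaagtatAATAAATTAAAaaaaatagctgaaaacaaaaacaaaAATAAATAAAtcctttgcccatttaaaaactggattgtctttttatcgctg

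Of these 8 runs, those of SNX5 and PCBP3 held AATAAA. The PCBP3 site lay at chr21:45656626-45656725 on the plus strand, 12.9 kb past the start of this poly(rC)-binding protein gene. It had 59 reads at the summit and AATAAA starting 27 and 31 bp before the edge. The SNX5 site, in a sorting nexin gene, lay at chr20:17964950-17965049 on the minus strand, with 62 reads and AATAAA starting 37 bp before the edge. WDR33 encodes the subunit of the cleavage machinery that binds the AAUAAA signal. Its site at chr2:127785088-127785187 (minus strand) had 63 reads, ATTAAA starting 39 bp before the edge and a fold enrichment of 22.1 in the authors' list. TSC22D2 had 61 reads at chr3:150414703-150414802 (plus strand) and AGTAAA starting 21 bp before the edge. The fold enrichment was 25 at the PCBP3 site, 6.23 at SNX5 and 6.63 at TSC22D2.

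Other runs held no AATAAA. PHOX2A, a homeodomain transcription factor of noradrenergic neurons, had 72 reads at chr11:72241362-72241461 (minus strand) and none of the hexamers in the 80 bases shown. TIMP2, an inhibitor of matrix metalloproteinases, also had 72 reads, at chr17:78918415-78918514 (minus strand), and no hexamer in its run. PKM, the pyruvate kinase gene, had 69 reads at chr15:72226658-72226757 (minus strand), again without a hexamer in the run. That site lay within 2 kb past another annotated start on the same strand. PCGF3, a Polycomb RING finger gene, had 61 reads at chr4:709481-709580 (plus strand), where AATGAA occurred 4 times in a short tandem repeat. The fold enrichment was 4.69 at the PHOX2A site, 3.57 at TIMP2 and 4.14 at PKM, and 8.58 at PCGF3. The median over all first-intron peaks beyond 2 kb was 5.52, above the values at PHOX2A, TIMP2 and PKM. Whether a hexamer goes with enrichment over the local background cannot be read from the few runs shown.

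BARD1, BLM and PCF11, which the study shows as example loci, also had such peaks. The tallest site of each is shown in the same way, to set these loci beside the sites above.
BARD1: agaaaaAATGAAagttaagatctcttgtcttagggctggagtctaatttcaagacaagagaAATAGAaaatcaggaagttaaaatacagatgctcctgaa
BLM: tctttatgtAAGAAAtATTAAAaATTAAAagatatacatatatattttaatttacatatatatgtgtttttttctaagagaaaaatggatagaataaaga
PCF11: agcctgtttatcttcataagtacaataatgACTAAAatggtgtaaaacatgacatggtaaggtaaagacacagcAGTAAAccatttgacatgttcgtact

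PCF11, a cleavage and termination factor, had 1 site, at chr11:83159929-83160028 (plus strand), 2.68 kb past the start. Its 59 reads at the summit compared with 57 reads at the tallest transcript-end peak of the gene. Such pairs do not compare transcript amounts, because reads at the summit can understate tall peaks. AGTAAA ran up to the edge, starting 6 bp before it, and ACTAAA started 50 bp before it. BARD1, the partner of BRCA1, had 5 sites between 2167 and 11083 bp past its start. They had 19, 15, 14, 14 and 11 reads, against 15 at its transcript end, and its tallest site lay at chr2:214802481-214802580 (minus strand). 3 of the 5 BARD1 sites had a hexamer in the 100 bp before the edge, and AATAAA was among them at the site with 11 reads. BLM, a RecQ helicase, had 5 sites between 2361 and 21194 bp past its start, with 19, 19, 18, 17 and 13 reads against 29 at its transcript end. The first of its 2 tallest sites lay at chr15:90719701-90719800 (plus strand) and had ATTAAA starting 57 and 64 bp before the edge. The other had AATAAA. The site with 17 reads had no hexamer, and the 36 bases before its edge occurred 359 times in the genome, so its reads cannot be tied to BLM alone. A further 3 peaks in intron 1 of BLM were left out because an A stretch followed them. MYCN and BRCA1 had no such peak: their first introns are 1.20 and 1.16 kb long and end before 2 kb.

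The rule removed most peaks at its first step. Of all peaks, 35072 had their summit in intron 1 of a canonical transcript, and 30673 of these lay over 2 kb past the start. Leaving out last introns, exons and transcript-end windows left 27781, of which 7889 (28.4%) were followed by an A stretch. Evenly spaced places in the same kind of sequence, 1 every 1000 bp, had such a stretch in 0.926% of cases. Just inside the limit 2255 peaks had 17 A in their richest 25-base window, and just outside it 1984 had 18. At the limit on distance, 226 otherwise eligible peaks lay 1900 to 2000 bp past the start and 227 lay 2000 to 2100 bp past it.

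The peaks that remained were spread over 5597 genes. The median distance from the start was 12.6 kb (quartiles 4.67 and 36.1 kb), and the farthest lay 840.4 kb past its start. Genes of 1 strand alone covered 19023 of the peaks (95.6%), and all sequence features below were read on that strand, since the list itself has no strand. A further 869 lay under genes of both strands. In all, 407 peaks lay in first introns of more than 1 gene and were counted once.

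How often such peaks occur depended strongly on the distance from the start. In detected genes, those with a transcript-end peak of −log10 q of at least 5, first introns held 26.8 peaks per 100 kb (26.04 to 27.5) between 2 and 5 kb. Between 5 and 10 kb they held 14.6 (14.1 to 15.1), and between 50 and 100 kb 6.58 (6.28 to 6.89). The density fell over each step from the first bin to 5.72 peaks per 100 kb (5.43 to 6.03) beyond 100 kb, and the intervals of neighbouring bins did not overlap. Internal introns under the same limits showed a shallower slope. They held 18.8 peaks per 100 kb (17.8 to 19.7) between 2 and 5 kb, below the first introns by a ratio of 1.43. Between 10 and 20 kb the order turned, with 10.15 (9.79 to 10.52) in first and 10.81 (10.48 to 11.15) in internal introns, whose intervals overlapped slightly. Between 50 and 100 kb internal introns held 9.07 (8.89 to 9.26) and beyond 100 kb 6.71 (6.61 to 6.81), both above the first introns.

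**Figure D1:**
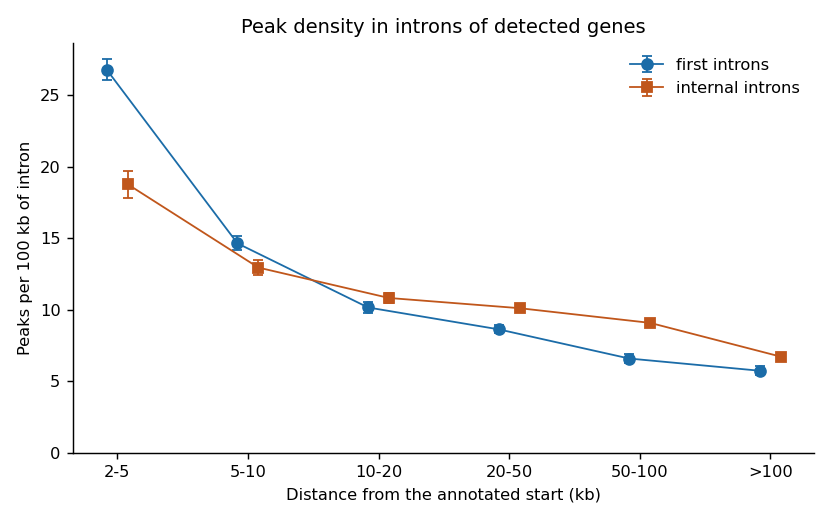
Peaks per 100 kb of eligible intron in detected genes (vertical axis) by distance from the annotated start in kb (horizontal axis), for first introns (circles) and internal introns (squares), with exact 95% Poisson intervals. First introns start at 26.8 and end at 5.72, and the curves cross between the second and the third bin.

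The same slope was seen within introns. The eligible part of each first intron was divided into 5 equal lengths. The part nearest the start held 32.4% of the peaks (31.7 to 33.03) and the part farthest from it 12.4% (11.996 to 12.9), with the parts between in order. For introns with an eligible stretch of 20 kb or more the shares were 32.9% (32.1 to 33.7) and 12.5% (11.95 to 13.1).

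The peaks were low compared with transcript ends. The median was 11 reads at the summit (quartiles 8 and 17, range 3 to 73), against 19 (13 and 28) at transcript-end peaks, 15 (11 and 21) at first-intron peaks within 2 kb, 9 (7 and 13) in internal introns and 10 (7 and 14) in last introns. At least 30 reads were reached by 4.53% (4.25 to 4.83) of them and by 21.4% (20.9 to 21.9) of the transcript-end peaks. The transcript-end peaks had to pass −log10 q of at least 5 and the other classes did not. 67.2% (66.5 to 67.8) of the first-intron peaks passed it. Reads at the summit include the local background, and the intron classes had another order by fold enrichment. The median fold was 5.52 for first-intron peaks beyond 2 kb and 5.47 within 2 kb. It was 5.84 in internal introns, 5.75 in last introns and 7.82 at transcript ends.

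Peaks farther from the start were lower, and at matched distance first and internal introns were close. Between 2 and 5 kb the median first-intron peak had 16 reads and between 5 and 10 kb 15. From 50 kb on it had 8. Internal-intron peaks had medians of 16, 15, 12, 9, 9 and 8 reads over the 6 bins, and first-intron peaks 16, 15, 11, 9, 8 and 8. Between 2 and 5 kb, 9.90% (9.11 to 10.75) of first-intron and 8.62% (7.33 to 10.11) of internal-intron peaks had at least 30 reads. Between 10 and 20 kb the shares were 2.07% (1.63 to 2.63) and 3.32% (2.81 to 3.92).

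**Figure D2:**
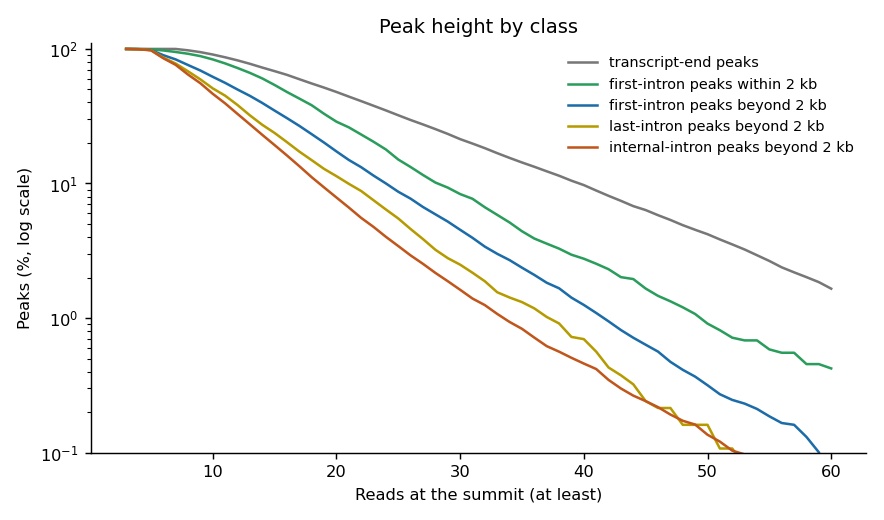
Share of peaks (vertical axis, percent, log scale) with at least the number of reads at the summit on the horizontal axis, for 5 classes of peaks. The line for first-intron peaks beyond 2 kb lies below those for transcript-end peaks and first-intron peaks within 2 kb, and above those for last and internal introns from about 10 reads on.

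A polyadenylation hexamer was found in the 100 bp before the 3′ edge of 59.7% (59.04 to 60.4) of the first-intron peaks. The 12 hexamers searched on the gene strand are those named with their shares below, and they can overlap each other. The opposite strand of the same peaks, read from their other edge, gave 38.8% (38.1 to 39.5), and evenly spaced places in the same introns gave 38.0%, each intron weighted by its number of peaks. Within an intron the places were not matched to the peaks for distance from the start, here or in the comparisons below. The share was 66.8% (66.3 to 67.2) in internal introns and 79.8% (79.2 to 80.3) at transcript ends. AATAAA alone was found at 25.8% (25.2 to 26.4) of the first-intron peaks, 8.81% (8.41 to 9.22) on the opposite strand and 7.004% of places. Internal introns had 31.7% (31.2 to 32.1) and transcript ends 48.0% (47.4 to 48.7).

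The excess over places differed between the hexamers. AAGAAA was the most frequent apart from AATAAA, at 13.8% of the peaks and 7.08% of places. ATTAAA was present at 10.5% of the peaks and 5.59% of places, AATGAA at 8.02% and 4.64%, and AGTAAA at 5.99% and 3.71%. For TATAAA the shares were 6.30% and 5.16%, for AATATA 6.26% and 4.72%, and for AATAGA 5.13% and 3.38%. GATAAA was found at 4.65% and 2.88%. CATAAA was found at 4.02% of the peaks and 3.23% of places, but at 4.39% on the opposite strand of the same peaks. AATACA (4.76% and 4.64%) and ACTAAA (3.67% and 3.71%) were about as frequent at peaks as at places, and on the opposite strand they had 5.33% and 3.30%. The other 9 hexamers were each less frequent on the opposite strand, from 2.36% for GATAAA to 8.81% for AATAAA. Peaks with 1 of the 10 hexamers other than AATAAA and ATTAAA, and with neither of these, made up 26.6% (25.9 to 27.2) of peaks. The share of all places was 26.1%. The excluded hexamers take more peaks than places out of this class. Either of them was present at 33.2% of the peaks, while at places they were found at 7.004% and 5.59%. The near-equal shares therefore do not show whether the other 10 were in excess at peaks. By strand, 32.9% (32.2 to 33.5) had a hexamer on the gene strand alone, 11.9% (11.5 to 12.4) on the opposite strand alone, 26.9% (26.3 to 27.5) on both and 28.3% (27.7 to 28.98) on neither. For AATAAA the first 2 of these shares were 22.98% (22.39 to 23.6) and 6.01% (5.68 to 6.36). An A stretch past the other edge on the opposite strand, where a transcript of that strand would be primed, was present at 2.60% (2.38 to 2.83).

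AATAAA had 2 preferred places. It started most often 3 bp before the edge, so that it ran across it, at 2.36% of the first-intron peaks. A broader maximum lay at 23 bp (1.39%), where transcript-end peaks had 3.56% and internal introns 2.00%. At 3 bp transcript-end peaks had 0.601%, internal introns 2.27% and places 0.0733%. Transcript-end peaks had their own maximum at 23 bp. AATAAA starting 10 to 35 bp before the edge was found at 17.1% (16.6 to 17.6) of the first-intron peaks, 23.5% (23.1 to 23.9) of the internal-intron peaks, 37.4% (36.7 to 38.0) of the transcript-end peaks and 2.03% of places.

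**Figure D3:**
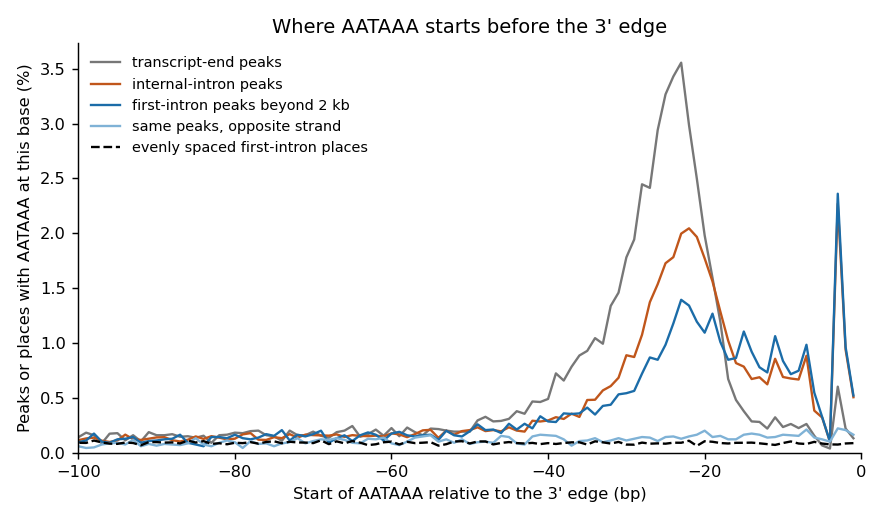
Share of peaks or places with AATAAA starting at each base before the 3′ edge (vertical axis, percent; horizontal axis, bp from the edge). First-intron peaks have a sharp maximum at 3 bp (2.36%) and a broad one at 23 bp (1.39%), while the opposite strand and the evenly spaced places stay at or below 0.221%.

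Although peaks before an A stretch had been left out, A remained frequent past the edge. In the first 20 bp past it 48.9% ± 19.9 of the bases were A (SD over 19023 peaks), against 26.8% ± 12.5 at evenly spaced places and 33.2% ± 22.9 at transcript ends. Internal introns had 48.2% ± 21.3. In the 100 bp before the edge the first-intron peaks had 32.5% ± 8.16 A and the places 27.1% ± 7.997. Where AATAAA starts 3 bp before the edge, its last 3 bases are A past the edge, so the A content was compared over bases 4 to 20 past the edge, a choice made after seeing the data. There 54.2% ± 15.5 of the bases were A at the 449 peaks with AATAAA at 3 bp and 37.6% ± 19.7 at the 3253 with AATAAA starting 10 to 35 bp before. The 15462 peaks with AATAAA in neither place had 49.3% ± 20.3. The part of priming on A-rich RNA in these peaks was not tested.

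The share with AATAAA moved with the A content that the limit had left. The rule used the A count as a limit at 18 only, and the groups compared here all lie under it. Of the 4587 peaks with at most 9 A in any 25 bases past the edge, 33.2% (31.8 to 34.5) had AATAAA and 27.2% (25.9 to 28.5) had it starting 10 to 35 bp before the edge. Of the 6759 peaks with 15 to 17 A the shares were 19.4% (18.5 to 20.3) and 9.38% (8.71 to 10.10). The share with any of the 12 hexamers moved less, from 55.3% (53.8 to 56.7) over 65.03% (63.50 to 66.5) and 62.6% (61.04 to 64.1) to 58.2% (57.0 to 59.3). The peaks with at most 9 A were taller, with a median of 13 reads (quartiles 8 and 19) against 10 (7 and 14), and lay nearer to the start, at a median of 7.84 kb against 21.7 kb.

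**Figure D4:**
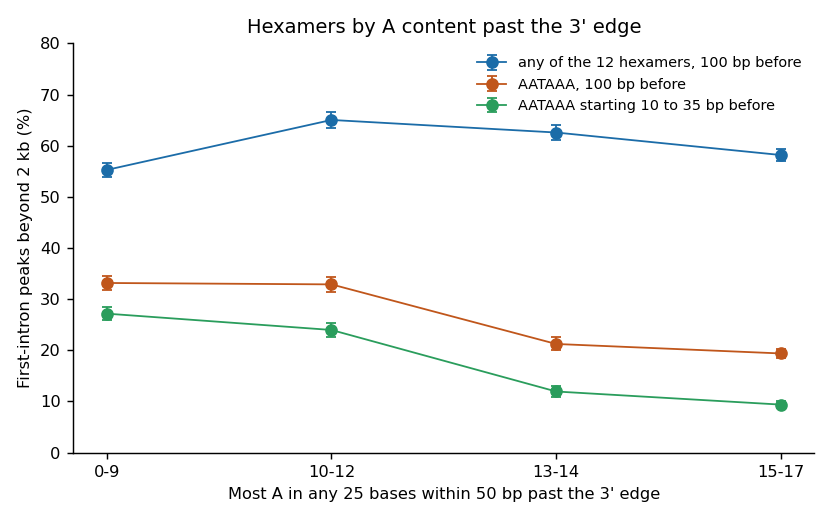
Share of first-intron peaks (vertical axis, percent, with 95% Wilson intervals) with any of the 12 hexamers, with AATAAA, or with AATAAA starting 10 to 35 bp before the edge, by the largest number of A in any 25 bases within 50 bp past the edge (horizontal axis). Both AATAAA shares are lower at 15 to 17 A (19.4% and 9.38%) than at 0 to 9 A (33.2% and 27.2%).

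Taller peaks carried AATAAA more often. It was present at 19.6% (18.5 to 20.8) of the peaks with 3 to 7 reads, 25.3% (24.1 to 26.5) with 8 to 11, 27.4% (26.3 to 28.5) with 12 to 19, 31.3% (29.5 to 33.2) with 20 to 29 and 33.7% (30.7 to 36.9) of the 872 peaks with at least 30 reads. On the opposite strand the share was 9.58% (8.76 to 10.46) in the lowest and 10.2% (8.37 to 12.4) in the highest of these groups. Any of the 12 hexamers was present at 56.0% (54.6 to 57.5) of the lowest and 61.7% (58.4 to 64.9) of the highest group. By distance, AATAAA was found at 23.8% (22.7 to 25.03) of the peaks between 2 and 5 kb and at 28.7% (27.2 to 30.3) between 10 and 20 kb. Internal-intron peaks had 26.9% (24.8 to 29.2) and 32.03% (30.61 to 33.5) in the same bins. Between 50 and 100 kb the classes lay farther apart, with 22.1% (20.3 to 23.99) in first and 34.1% (33.1 to 35.1) in internal introns.

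Other motifs that often flank functional sites were about as frequent as at evenly spaced places. TGTGT or GTGTG, the kind of sequence that the CstF complex binds, was found within 50 bp past the edge of 9.64% (9.23 to 10.07) of the first-intron peaks, 10.5% of places and 15.5% (15.02 to 15.99) of transcript-end peaks. TGTA, the core of the motif bound by the CFIm complex, was found in the 100 bp before the edge of 40.0% (39.3 to 40.7), 39.3% of places and 47.7% (47.0 to 48.4) of transcript-end peaks. On the opposite strand the shares were 6.47% (6.13 to 6.82) for the GT-rich motifs and 30.6% (29.96 to 31.27) for TGTA. Base content was not matched in these comparisons. The 50 bp past the edge held 38.3% A and 25.7% T at peaks, and 26.8% A and 30.9% T at places. The pair of AATAAA before and a GT-rich motif past the edge occurred at 2.90% (2.67 to 3.14) of the peaks and 0.637% of places. In the 1000 bp before the edge, the U1 motifs GGTGAG or GGTAAG or GTGAGT, which resemble 5′ splice sites, occurred 0.774 ± 1.03 times (SD over peaks) against 0.680 ± 0.998 at places. AATAAA occurred 1.18 times at peaks and 0.864 times at places over the same stretch. Without the last 100 bp AATAAA occurred 0.907 times per kb at peaks and 0.862 at places. No U1 motif was present before 51.3% of the peaks and 55.7% of places.

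At the level of genes, 5094 of the 7916 detected genes with eligible first-intron bases had at least 1 such peak (64.4%, 63.3 to 65.4). Of 3245 protein-coding genes with eligible bases and no detected transcript end, 503 did (15.5%, 14.3 to 16.8). These 503 genes held 1324 of the peaks. Under genes of 1 strand alone, the 1180 peaks in genes not detected had a median of 9 reads and the 17843 in detected genes 12. The density was 2.17 peaks per 100 kb in genes not detected and 10.96 in detected genes. Among detected genes it followed the height of the tallest transcript-end peak, from 7.06 per 100 kb (6.85 to 7.28) in the lowest quartile, with 7 to 17 reads at the end, to 15.3 (14.9 to 15.7) in the highest, with 34 to 123 reads. The median eligible length fell from 9.56 to 5.78 kb over these quartiles, so the stretch from 2 to 5 kb was also compared alone, a choice made after seeing the data. There the density was 18.6 per 100 kb (17.4 to 19.8) in the lowest and 33.7 (32.1 to 35.5) in the highest quartile. AATAAA went slightly the other way, from 27.9% (26.5 to 29.3) to 23.7% (22.6 to 24.97) of the peaks.

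Genes with longer first introns had more peaks but fewer per base. Among genes with any, the median was 2 peaks, 1890 genes had 1, and 327 genes had 10 or more and held 28.02% of all the peaks. Over detected genes the number of peaks and the number of eligible bases had a Spearman's rho of 0.692 across 7916 genes, which share depth and are not independent replicates. In the shortest quartile of first introns, with up to 2.28 kb of eligible sequence, 25.8% (23.9 to 27.7) of genes had a peak and the density was 32.7 per 100 kb. In the longest quartile, from 23.4 kb on, 91.3% (90.0 to 92.5) had a peak and the density was 9.06. The stretch from 2 to 5 kb allowed a comparison at 1 distance, made by the length of the whole gene. Lengths of the first intron were not compared at 1 distance. There genes of up to 20 kb held 30.3 peaks per 100 kb (28.03 to 32.7), and genes over 100 kb 24.5 (23.3 to 25.8).

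The 5 detected genes with the most peaks all have very long first introns. SGCZ, which encodes zeta-sarcoglycan, had 86 peaks over 679.0 kb of eligible sequence, and 54 of them had a hexamer. KCNQ5, a potassium channel gene, had 76 peaks over 375.0 kb, with a median of 13 reads and a tallest of 36 against 39 at its transcript end. IQCJ-SCHIP1, a readthrough gene, had 64 over 482.9 kb. LSAMP, a neuronal cell adhesion gene, had 61 over 355.8 kb, with a tallest peak of 33 reads against 39 at the end. EFNA5, which encodes the axon guidance ligand ephrin-A5, had 51 over 241.4 kb, and its tallest, with 27 reads, compared with 25 at the end. NALF1, an auxiliary factor of the NALCN channel, had the most of any gene, 117 peaks over 650.4 kb, and no transcript-end peak at −log10 q of at least 5. Of these 117 peaks 80 had a hexamer.

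**Figure D5:**
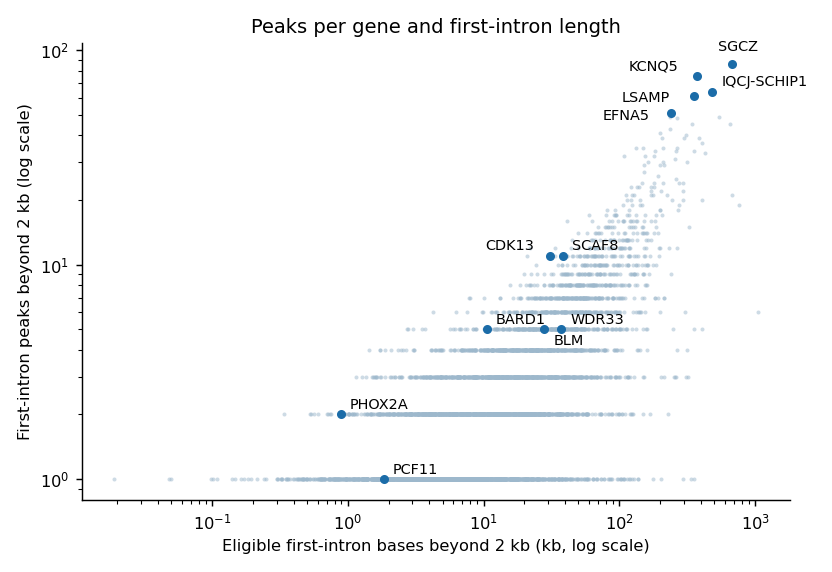
Number of first-intron peaks per gene (vertical axis, log scale) against eligible first-intron sequence beyond 2 kb in kb (horizontal axis, log scale) for the detected genes with at least 1 peak. Each point is 1 gene. SGCZ has the most, 86 peaks over 679.0 kb, and PHOX2A has 2 peaks over 0.886 kb.

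The tallest first-intron peak was set beside the tallest transcript-end peak of the same gene. This takes in detected genes alone, whose transcript-end peak had to pass −log10 q of at least 5 while the first-intron peak did not, and leaves out the 503 genes above. Among 4892 detected genes with a peak on a single gene strand, the tallest first-intron peak had more reads than the tallest transcript-end peak in 1076 (21.995%, 20.9 to 23.2) and as many in 136. The median of the tallest peak was 17 reads in the first intron and 25 at the transcript end. If the caller's default duplicate setting was kept, reads at the summit count distinct read starts and can understate tall peaks. Transcript ends, the taller class, may be understated more. The share therefore compares peak heights and not the amounts of RNA ending at each place, and so do the pairs given for single genes. How far this raised the share was not tested. By the fold enrichment the share was 15.6% and by −log10 q 15.7%. It was 16.8% (13.7 to 20.5) in the shortest quartile of first introns and 25.97% (23.99 to 28.07) in the longest, where the tallest is taken from more peaks.

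The gene lists were described by their counts beside all detected genes, of which 64.4% had a peak, with a median of 1 peak a gene and 10.96 peaks per 100 kb. Because the density depends on distance, each list's number of peaks is also given as a ratio to the number that the 6 distance bins of all detected genes would give over its eligible bases. Transcript-end height, which moves with the density, was not matched in these ratios. Their intervals count peaks and do not cover the spread between the genes of a list, where a few genes can hold most peaks. Cleavage and polyadenylation factors had a peak in 13 of 16 genes, 42 peaks in all and a median of 2. The density was 22.6 peaks per 100 kb (16.3 to 30.6), a ratio of 1.59 (1.15 to 2.15). SCAF8, a binder of the polymerase tail, had 11 peaks with a tallest of 38 reads, against 13 reads at its transcript end. CSTF3, a CstF subunit, had 5 with a tallest of 25 against 29. WDR33 had 5, and its tallest of 63 reads compared with 32 at the end.

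Transcriptional kinases and cyclins had a peak in 6 of 10 genes, 39 peaks in all, a median of 2 and a ratio of 1.44 (1.03 to 1.97). CDK13, a target of THZ531, had 11 peaks over 31.0 kb, 8 of them with a hexamer, and a tallest of 22 reads against 28 at the end. The Mediator kinases CDK8 and CDK19 had 10 and 7 peaks, with tallest peaks of 21 and 10 reads against 22 and 32. U1 snRNP and LUC7-like genes had a peak in 6 of 9 genes, a median of 1 and a ratio of 1.37 (0.709 to 2.40). SNRPA, which encodes a protein of U1 snRNP, had 3 peaks over 3.83 kb, with a tallest of 43 reads against 32 at the end. LUC7L3 had 3 and LUC7L2 had 2, with tallest peaks of 41 and 26 reads against 50 and 85.

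Neuroblastoma transcription factors had a peak in 4 of 7 genes, a median of 1 and a ratio of 1.62 (0.904 to 2.67). KLF7 had 9, with a tallest of 35 reads against 52 at the end, and LMO1 had 3, with 10 against 28. PHOX2A had 2 peaks over 0.886 kb, neither with a hexamer, and 123 reads at its transcript end. Axon guidance genes had a peak in 22 of 27, a median of 3 and a ratio of 1.05 (0.900 to 1.22). UNC5C, a netrin receptor, had 35, with a tallest of 42 reads against 21, and NEO1, which encodes neogenin, had 11, with 18 against 54. Chromatin regulators had a peak in 20 of 23 genes, a median of 5 and a ratio of 1.45 (1.19 to 1.75). The remodellers CHD9, CHD6 and CHD7 had 16, 10 and 9 peaks, with tallest peaks of 46, 28 and 36 reads against 37, 27 and 41 at the ends.

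Of the study's list of DNA damage response genes, 146 symbols were matched and 63 were detected with eligible bases. A peak was present in 41 of these (65.1%, 52.8 to 75.7), with a median of 1 and a ratio of 1.18 (0.961 to 1.43). MNAT1, a subunit of the CDK-activating kinase, had 7, REV3L, a translesion polymerase subunit, had 6, and BLM had 5. The study's list of genes with premature cleavage and polyadenylation (PCPA) was chosen on nascent RNA under the same inhibitor, and 803 of its 809 entries were matched. It is not independent of drug-treated libraries, which the pool is taken to hold. Of 547 detected genes on it with eligible bases, 417 had a peak (76.2%, 72.5 to 79.6), with a median of 2 and a ratio of 1.52 (1.45 to 1.59). KCNQ5, ZNF804A and SYN2, a synapsin gene, had the most, with 76, 48 and 35.

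The higher density on the PCPA list was seen at most first-intron lengths. With 20 to 50 kb of eligible sequence, its genes held 17.8 peaks per 100 kb (16.5 to 19.2), against 10.7 (10.3 to 10.98) in other detected genes. Over 50 kb the values were 14.01 (13.01 to 15.1) and 7.95 (7.76 to 8.14), and between 2 and 5 kb 37.2 (30.6 to 44.7) and 24.8 (23.3 to 26.3). Up to 2 kb the intervals overlapped, with 35.9 (25.8 to 48.7) and 33.1 (30.3 to 36.2). Transcript-end height, which moves with the density, was not matched between these groups.

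The labelled cell type was checked by transcript-end peaks. All 11 sympathoadrenal and neuroblastoma markers had one, as had 2 of 5 fibroblast, 1 of 5 epithelial and 0 of 5 blood cell markers. Among the neuroblastoma markers, ELAVL4, which encodes the neuronal protein HuD, had 8 first-intron peaks with a tallest of 39 reads against 48 at its end, and STMN2, which encodes a neuronal stathmin, had 5, with 57 against 72.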

How the data were processed

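The study's methods state that reads were trimmed and aligned to GRCh38 by STAR 2.5.1b, with at most 20 placements each. All samples' reads were then pooled for a single MACS2 2.1.1 run without a control, in which reads were extended to 100 bp. The deposited list gives each peak's fold enrichment, a ratio of pileup plus 1 to local background plus 1, and its −log10 p. The deposited score, −log10 q times 10 cut to a whole number, was divided by 10 to give −log10 q. The other value used was the authors' offset of the summit. The pileup at the summit (reads) was solved here from fold and −log10 p, with a largest misfit of 0.000172. It counts distinct read starts if the caller's default duplicate setting was kept, which the methods do not state. Under that setting at most 100 reads extended to 100 bp can overlap a base on 1 strand, and 200 on both. The largest value at a transcript-end peak was 200, and MYCN had 100 at its transcript end. Reads at the summit can therefore understate tall peaks, and they are not a measure of transcript abundance. Replicates could not be separated, so precision is given as counting intervals only.

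Genes, canonical transcripts and exons came from Gencode 44 on GRCh38, not the release the study used. The 3′ edge was the peak end for genes on the plus strand and the peak start for genes on the minus strand. Shares have Wilson intervals, and densities have exact Poisson intervals over intronic bases outside exons and transcript-end windows. Copies were counted as exact matches of 36 bases on either strand. Tools were Python 3.11.15, numpy 2.4.6, pandas 2.3.3 and scipy 1.17.1. Named were the 5 study genes, the 10 tallest peaks (outside chromosome 8), 2 of which are not reported here, the 5 detected genes with the most peaks and the 3 genes with the most peaks of each list. Signal tracks of single groups were not analysed here. The rule, the lists and the comparisons were chosen with earlier results of these data known.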

Additional observations from a re-analysis of the deposited data

How the results depend on the processing

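Of 78 values recomputed under alternatives, 33 stayed within the counting interval of the reported value (counts of peaks within 1.5 times) and 45 did not. A cutoff of −log10 q of at least 5 kept 13361 peaks and gave 62.9% with a hexamer, 29.6% with AATAAA, a median of 14 reads and a peak in 55.5% of detected genes. With at least 20, 590 peaks remained, with 75.3%, 42.7%, 31 reads and 6.05%. An A limit of 22 gave 54.3%, 22.6% and 68.8% of genes, and a limit of 15 left 12858 peaks with 60.6%, 29.3%, 13 reads and 56.8%. A distance over 5 kb gave 61.8%, 26.5%, 10 reads and 61.7%, and over 1 kb 61.7% of genes. Peaks with 1 exact copy gave 62.6%, 26.9% and 59.045% of genes. The share of genes was 61.8% for peaks with a single gene strand and 62.9% when no base of a peak touched an exon or transcript-end window. A hexamer window of 50 bp gave 47.1% and, for AATAAA, 21.2%. A window that ended at the summit gave 37.4% and AATAAA with ATTAAA alone 33.2%. The tallest first-intron peak exceeded the transcript end in 15.6% of genes by fold and 15.7% by −log10 q.

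The densities over the 6 distance bins were 20.4, 11.4, 8.17, 6.96, 5.37 and 4.41 per 100 kb with all protein-coding genes, and 19.7, 10.9, 7.05, 5.38, 3.82 and 3.18 with −log10 q of at least 5. Both kept the falling order over the first 5 bins. No paired analysis was possible because no value belongs to a single library, and no replicate could be left out for the same reason. The alternative without repeat sequence was not run, since the reference used here marks no repeats. The depth of the libraries is unknown, so a gene without a peak is not shown to lack an early end.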

Other observations

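The peaks often came in groups. Another peak of the same gene lay within 1 kb of 26.03% of them. Over 2044 windows of 1 Mb with at least 1 peak the median was 7. The window with the most after those of NALF1 and KCNQ5 held 68 peaks of 3 genes, led by IQCJ-SCHIP1. ALK, the receptor kinase mutated in some neuroblastomas, led a window on chromosome 2 with 41 peaks, all in this 1 gene. A window on chromosome 19 held 37 peaks spread over 14 genes.

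Other annotated starts on the gene strand lay within 2 kb before 6.19% (5.85 to 6.54) of the peaks and 4.81% of evenly spaced places. The places were not matched to the peaks for distance from the canonical start, so these shares do not compare like positions. The 1177 peaks past another start were taller, with a median of 16 reads against 11. They less often had a hexamer, at 53.4% (50.5 to 56.2) against 60.2% (59.4 to 60.9). They also lay nearer to the canonical start, at a median of 3.06 kb against 13.9 kb, where first-intron peaks in general were as tall and as seldom had a hexamer: between 2 and 5 kb all of them had a median of 16 reads and a hexamer in 54.0% (52.7 to 55.4) of cases. The 36 bases that end at the edge had a second exact copy in the genome at 9.22% (8.81 to 9.63) of the peaks and 10.9% (10.4 to 11.4) of places, and more than 20 copies at 808 peaks. Peaks left out for an A stretch had a hexamer in 32.6% (31.6 to 33.7) and AATAAA in 10.3% (9.67 to 11.04) of cases, with a median of 9 reads.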
